A study of Mus musculus with 14 samples.

Results

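The genes described here are 9 transporters of the kidney tubule that carry organic anions and cations: Slc22a6, Slc22a8, Slc22a12, Slc22a2, Slco1a1, Slc47a1, Abcc2, Abcc4 and Abcc3. They were chosen by gene symbol, and they are 9 of 24421 genes in a table of read counts from RNA sequencing. All 9 carried enough counts to be tested, with 14854 genes tested in all. The kidneys came from male C57BL/6J mice in 5 groups, with 3 libraries of Dps at 4 h, 3 of Dps at 24 h, 3 of MnDps at 4 h, 2 of MnDps at 24 h and 3 of vehicle control. Dps and MnDps, which the series title presents as protein nanocages that reach the proximal tubule through the glomerular filter, were each injected into a vein at 18 mg/kg. Neither name is spelled out, no sampling time is given for control kidneys, and nothing states that libraries came from separate animals. P-values therefore measure the spread between these libraries. Whole kidney was sequenced, so fewer cells of a type and less RNA per cell cannot be told apart.

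The proximal tubule clears drugs, toxins and metabolites from blood in 2 steps. Carriers on the blood side load the cell: the organic anion transporters encoded by Slc22a6 (OAT1) and Slc22a8 (OAT3) exchange an anion for a dicarboxylate, and Slc22a2 (OCT2) lets organic cations in along the membrane voltage. Carriers on the urine side then discharge them, among them the proton-driven cation exporter of Slc47a1 (MATE1) and the ATP-driven pumps of Abcc2 (MRP2) and Abcc4 (MRP4). Slc22a12 (URAT1) takes urate back from the urine, Slco1a1 encodes an organic anion-transporting polypeptide that in mouse kidney is known to depend on androgen, and Abcc3 (MRP3) pumps anions to the blood side of epithelial cells.

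Libraries held between 15097093 and 42074942 counts in all. Those above 30000000 were Dps 4 h replicates 1 and 2 and control replicate 3. Levels are normalised read counts scaled to library size (CPM), and a gene was called where the adjusted p of edgeR's quasi-likelihood test over all 14854 genes was under 0.05. Fold changes of all genes followed transcript length in each comparison with control. Spearman's rho across genes, which are not independent replicates, was 0.17 for Dps at 4 h, −0.47 for MnDps at 4 h, −0.51 for Dps at 24 h and −0.34 for MnDps at 24 h. With GC content rho was 0.04, 0.25, 0.29 and 0.42 in the same order. Values with a correction for length and GC content are therefore given beside the transporter calls that it changes. The correction also shifted the genes together. With it the median log2 fold change over all genes was −0.09, −0.04, −0.01 and −0.03 in the same order. For Dps at 24 h over 4 h this median was 0.06 with the correction and −0.01 without it. Corrected values of single genes include this shift.

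In control kidneys the 9 genes differed widely in level. Per kilobase of the longest annotated coding transcript, Slc22a12 stood at 1051 ± 220 CPM per kb, the highest of the 9 (SD, n = 3 here and below unless given). Slc22a6 followed at 341 ± 27.7 and Slc47a1 at 332 ± 5.08 CPM per kb, closer to each other than the spread of Slc22a6. Slc22a2 was at 232 ± 18.2, Slc22a8 at 192 ± 10.5 and Slco1a1 at 87.4 ± 8.56 CPM per kb. The 3 ATP-driven pumps were the lowest, with Abcc2 at 41.2 ± 5.95, Abcc4 at 7.23 ± 0.301 and Abcc3 at 0.646 ± 0.0752 CPM per kb. Abcc3 rested on 55 to 206 reads per library, and every other member on at least 610 reads.

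Against control, 2 members were called lower after Dps at 4 h, where 14.6% of all genes tested were called in either direction and 6.27% lower. After MnDps at 4 h 6 members were lower, against 45.6% of all genes called and 22.7% lower. After Dps at 24 h 2 were lower (20.1% of all genes called, 10.4% lower), and after MnDps at 24 h 1 was higher and 1 lower (13.3% called, 4.93% higher and 8.39% lower). The median log2 fold change of the 9 was −0.14, −0.28, −0.19 and −0.19 in these comparisons, beside −0.02, 0.00, 0.00 and 0.02 over all genes tested. Negative values were found in 5, 8, 8 and 7 of the 9 members. The libraries of 4, 5, 5 and 5 members did not overlap those of the controls, as was so for 34.7%, 51.9%, 38.2% and 45.2% of all genes. These comparisons share the 3 controls.

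**Figure D1:**
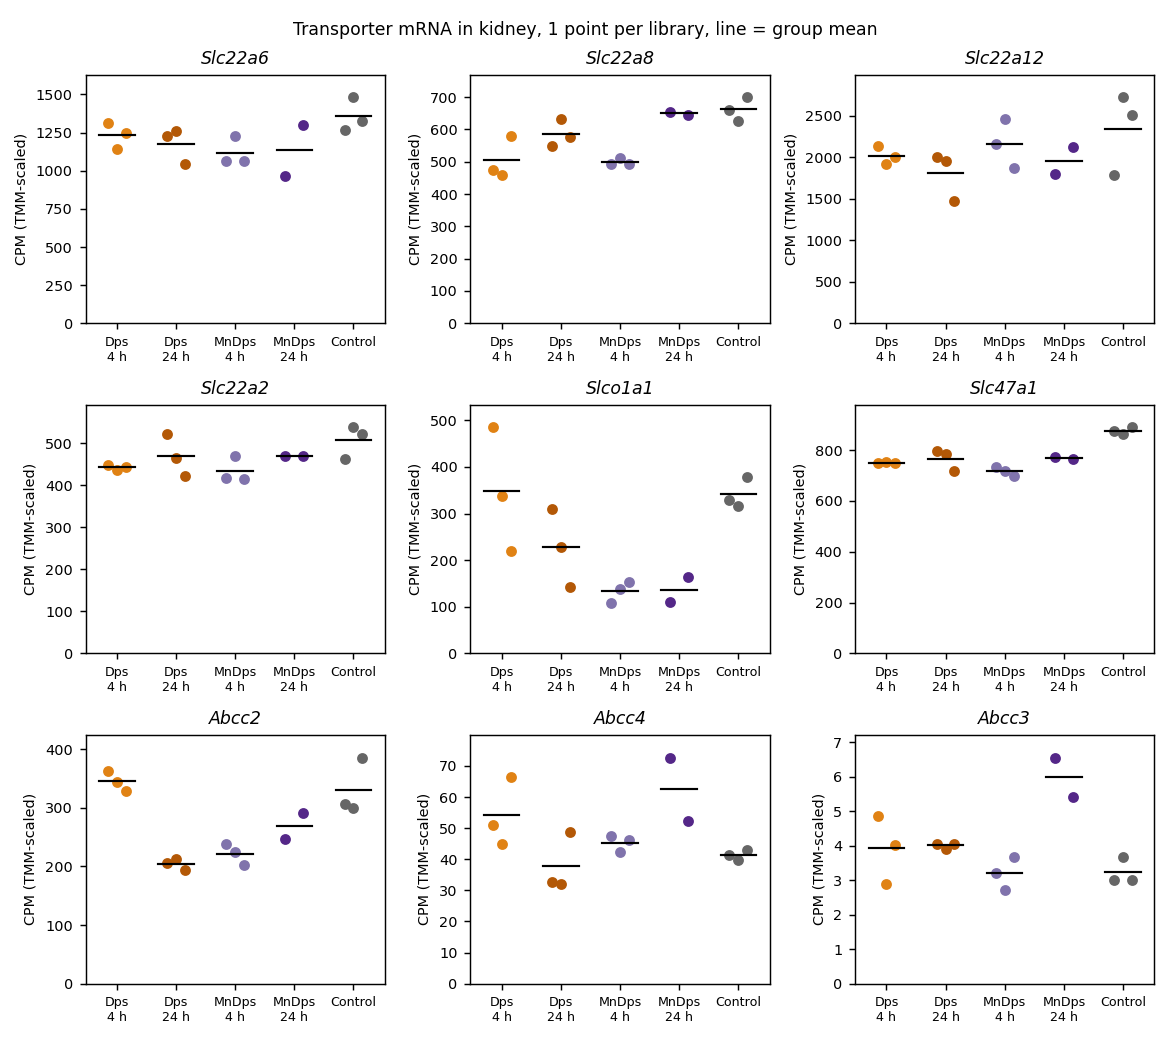
Level of each transporter mRNA in CPM (vertical axes, from 0) in the 5 groups, with 1 point per library and a line at the group mean. Slco1a1 is lowest in both MnDps groups, Abcc2 is low after MnDps at 4 h and after Dps at 24 h, and all Slc47a1 libraries of treated mice lie below the 3 controls.

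**Figure D2:**
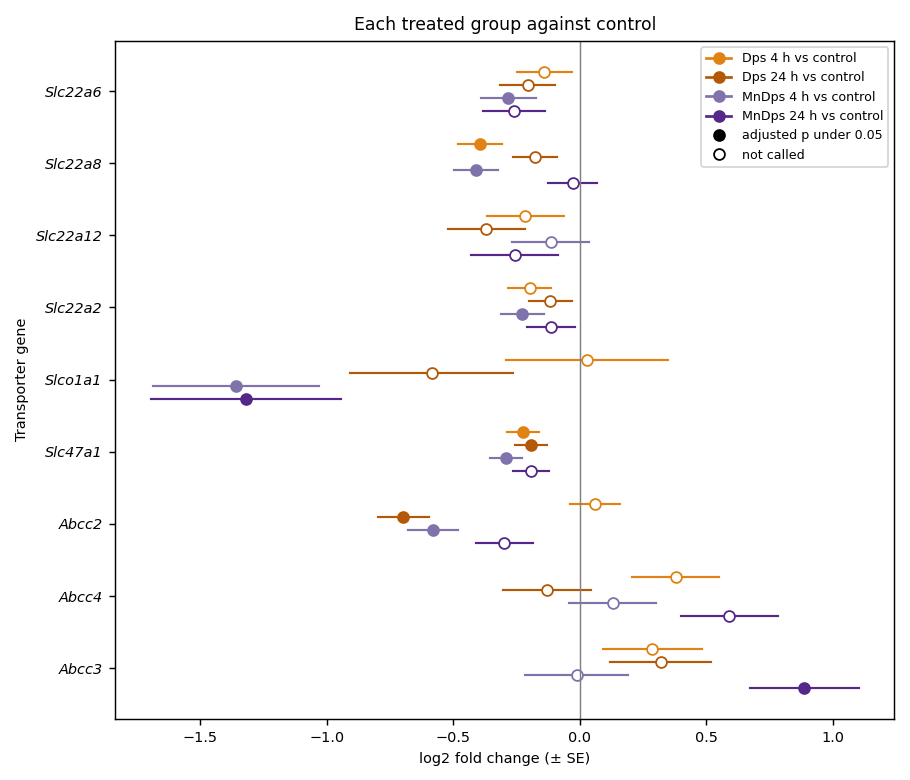
Log2 fold change ± SE (horizontal axis) of each transporter gene (vertical axis) in the 4 treated groups against control; filled points have an adjusted p under 0.05. Slco1a1 reaches −1.36 after MnDps at 4 h, and Abcc3 0.89 after MnDps at 24 h.

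The organic anion uptake carriers Slc22a6 and Slc22a8 are neighbours on mouse chromosome 19, at chr19:8618039-8628299 and chr19:8591254-8611835 of GRCm38, both on the plus strand and 6.2 kb apart. Their promoters are shown because these neighbouring genes share a motif there, found in a search of the members' promoters for several motifs. Each window holds 250 bases before and 50 after the start in RefSeq's GRCm38.p6 annotation, on the plus strand, at chr19:8617746-8618045 for Slc22a6 and chr19:8592932-8593231 for Slc22a8, whose RefSeq start lies inside the gene as given above from GENCODE. Capitals mark GTTAAT, the half-site of the tubule transcription factor HNF1.
Slc22a6: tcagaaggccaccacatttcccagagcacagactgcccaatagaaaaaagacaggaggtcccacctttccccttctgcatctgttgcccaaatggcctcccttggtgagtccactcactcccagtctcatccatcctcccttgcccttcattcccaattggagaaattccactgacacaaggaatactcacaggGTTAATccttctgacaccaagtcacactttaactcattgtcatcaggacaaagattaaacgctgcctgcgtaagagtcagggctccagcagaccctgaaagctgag
Slc22a8: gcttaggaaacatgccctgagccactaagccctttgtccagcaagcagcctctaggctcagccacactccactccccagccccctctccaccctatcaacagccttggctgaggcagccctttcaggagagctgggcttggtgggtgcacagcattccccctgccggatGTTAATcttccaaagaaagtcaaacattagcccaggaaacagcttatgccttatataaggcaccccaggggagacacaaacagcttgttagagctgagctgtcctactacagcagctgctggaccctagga
The match starts at base −56 in Slc22a6 and −81 in Slc22a8. GTTAAT was searched on both strands and found in 2 of the 8 member windows, while 7.1% of 32851 mouse promoter windows of this length hold it. CAAAGTC, the core of an HNF4 site, was searched in the same way and found in 0 of the 8 windows listed for 7 of the members, while 4.4% of all windows hold it.

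Slc22a8 fell at 4 h after both proteins. It had 475, 458 and 579.6 CPM after Dps at 4 h and 492, 511 and 493 CPM after MnDps at 4 h, against 659, 627 and 699.8 CPM in the controls. All 6 libraries of the 4 h groups lay below all 3 controls. The log2 fold change was −0.39 ± 0.09 after Dps (adjusted p = 0.00579) and −0.41 ± 0.09 after MnDps (adjusted p = 0.00143), and both calls were kept under each of 14 alternatives. At 24 h Slc22a8 had 548, 632 and 578 CPM after Dps and 654 and 645 CPM after MnDps. The MnDps libraries lay within the range of the controls (−0.03 ± 0.10, adjusted p = 0.874), and the highest Dps library overlapped it (−0.18 ± 0.09, adjusted p = 0.161). Within MnDps, 24 h over 4 h gave 0.38 ± 0.10 (adjusted p = 0.0108), a call that was lost without MnDps 24 h replicate 1 (0.36) or replicate 2 (0.39). Within Dps the same comparison gave 0.22 ± 0.09 (adjusted p = 0.0528), and it was called without Dps 4 h replicate 3 (0.32) or Dps 24 h replicate 1 (0.26) and with the length and GC correction (0.31). DESeq2, limma voom, DESeq2's size factors and the stricter count filter called it too (0.22 each), which makes 7 of 14 alternatives.

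Slc22a6, the neighbour of Slc22a8, was called in 1 comparison, MnDps at 4 h against control. It had 1312, 1140.5 and 1247 CPM after Dps at 4 h, 1062, 1228 and 1062 CPM after MnDps at 4 h, 1231, 1262 and 1042 CPM after Dps at 24 h and 968 and 1302 CPM after MnDps at 24 h, against 1270.1, 1483 and 1325 CPM in the controls. Every treated group had a lower mean than the controls, but only the libraries of MnDps at 4 h and of Dps at 24 h lay wholly below them. It was called lower after MnDps at 4 h (−0.28 ± 0.11, adjusted p = 0.0456), and the call was lost without MnDps 4 h replicate 1 (−0.26) or 3 (−0.25) and without control replicate 2 (−0.24) or 3 (−0.30). It was also lost in limma voom (−0.24), with a term for libraries over 30000000 counts, called the depth term below (−0.30), and with the length and GC correction (−0.29, adjusted p = 0.0528), and the gene was called in 7 of 14 alternatives. In the other groups the values were −0.14 ± 0.11 (adjusted p = 0.423) for Dps at 4 h, −0.21 ± 0.11 (0.193) for Dps at 24 h and −0.26 ± 0.12 (0.169) for MnDps at 24 h.

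Slc22a12, the urate carrier at chr19:6535845-6543032 on the minus strand, was not called in any comparison. It had 2136, 1915 and 1998 CPM after Dps at 4 h, 2159.6, 2457 and 1867 CPM after MnDps at 4 h, 2003, 1959 and 1474 CPM after Dps at 24 h and 1797 and 2119 CPM after MnDps at 24 h, against 1788, 2722 and 2507 CPM in the controls. Control replicate 1 was the lowest of the controls and lay below all libraries of the 4 h groups. The log2 fold change was −0.37 ± 0.15 after Dps at 24 h (adjusted p = 0.1), and it was called without control replicate 1 (−0.54, adjusted p = 0.0198) and with the length and GC correction (−0.55, adjusted p = 0.0374). The other comparisons with control gave −0.21 ± 0.15 for Dps at 4 h, −0.11 ± 0.15 after MnDps at 4 h and −0.26 ± 0.17 at 24 h. With the length and GC correction these were −0.27, −0.35 and −0.48, without a call. The gene overlaps Nrxn2 on the other strand, and whether reads were counted by strand is not stated in what was used here.

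Both cation carriers were called lower after MnDps at 4 h, and Slc47a1 also after Dps at both times. Slc22a2, the uptake carrier at chr17:12584132-12628488, had 449, 437 and 445 CPM after Dps at 4 h and 418, 469 and 415 CPM after MnDps at 4 h, against 463, 538 and 524 CPM in the controls. The Dps libraries lay below the controls, while replicate 2 of MnDps at 4 h reached into their range. It was called after MnDps at 4 h (−0.23 ± 0.08, adjusted p = 0.0382; −0.46 with the length and GC correction), and the call was lost without MnDps 4 h replicate 1 (−0.21) or 3 (−0.20) and without control replicate 2 (−0.20) or 3 (−0.21). It was also lost in limma voom, with the depth term and with only the groups compared, and was kept in 7 of 14 alternatives. After Dps at 4 h it gave −0.20 ± 0.08 (adjusted p = 0.132), called with the correction (−0.26, adjusted p = 0.0295). In that comparison the correction moved the median over all genes from −0.02 to −0.09. At 24 h it had 521, 464 and 421 CPM after Dps (−0.12 ± 0.08, adjusted p = 0.351) and 469 and 470.2 CPM after MnDps (−0.11 ± 0.10, adjusted p = 0.444). With the correction these 24 h values were −0.24 and −0.26, without a call.

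Slc47a1, the exporter at chr11:61343401-61378345, varied least between libraries of all 9 members, with a highest level 1.27 times its lowest. It had 749, 755 and 749 CPM after Dps at 4 h, 733, 716 and 700.1 CPM after MnDps at 4 h, 797, 786 and 717 CPM after Dps at 24 h and 772 and 763 CPM after MnDps at 24 h, against 877, 863 and 889.7 CPM in the controls. All 11 libraries of treated mice lay below all 3 controls. The fall was small: −0.22 ± 0.06 after Dps at 4 h (adjusted p = 0.0257), −0.29 ± 0.06 after MnDps at 4 h (adjusted p = 0.00169), −0.19 ± 0.06 after Dps at 24 h (adjusted p = 0.0415) and −0.19 ± 0.07 after MnDps at 24 h, which edgeR did not call (adjusted p = 0.0864) and DESeq2 did (−0.19, adjusted p = 0.019). With the length and GC correction all 4 were called, at −0.31, −0.40, −0.22 and −0.27. The call after MnDps at 4 h was kept in each of 14 alternatives. The call after Dps at 4 h was lost when replicate 1, 2 or 3 of that group or control replicate 3 was left out (−0.21 each), with no count filter (−0.20) and with only the groups compared (−0.21). The call after Dps at 24 h was lost without replicate 2 (−0.22) or 3 (−0.16) of that group or control replicate 1 (−0.20) or 3 (−0.18), and with no count filter, only the groups compared or the depth term (−0.19 each).

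Slco1a1, at chr6:141907282-141946962 on the minus strand, had the largest fold change against control of the 9 members and the widest spread, with a highest level 4.48 times its lowest. It had 108, 137 and 154 CPM after MnDps at 4 h and 109.6 and 164 CPM after MnDps at 24 h, against 329, 316 and 379 CPM in the controls. Every MnDps library was at or below 164 CPM, and every control at or above 316 CPM. The log2 fold change was −1.36 ± 0.33 at 4 h (adjusted p = 0.00684), or 0.39 times the control level, and −1.32 ± 0.38 at 24 h (adjusted p = 0.0454). The 4 h call was kept in each of 14 alternatives, from −1.48 to −1.13. The 24 h call was kept in 5 of 13: it was lost without MnDps 24 h replicate 1 (−1.06) or 2 (−1.64), without control replicate 1 (−1.35), 2 (−1.38) or 3 (−1.24), with the length and GC correction (−1.01), with a term for libraries over 30000000 counts (−1.13) and with no count filter (−1.33). After Dps the libraries spread widely, with 485, 339 and 220.3 CPM at 4 h (0.03 ± 0.32, adjusted p = 0.966) and 311, 229 and 143 CPM at 24 h (−0.59 ± 0.32, adjusted p = 0.224). The highest Dps library at 4 h lay above the controls and the lowest below them, and all 3 at 24 h lay below them.

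Abcc2, the urine-side anion pump at chr19:43782192-43840740 on the plus strand, was low in different groups at the 2 times. It had 364, 344 and 329 CPM after Dps at 4 h, 238, 225 and 202 CPM after MnDps at 4 h, 206, 213 and 193 CPM after Dps at 24 h and 247 and 292 CPM after MnDps at 24 h, against 307, 299.8 and 386 CPM in the controls. Dps at 4 h lay within the range of the controls, and the other 3 groups lay wholly below it. The log2 fold changes were 0.06 ± 0.10 after Dps at 4 h (adjusted p = 0.729), −0.58 ± 0.10 after MnDps at 4 h (adjusted p = 0.000298), −0.70 ± 0.10 after Dps at 24 h (adjusted p = 0.00134) and −0.30 ± 0.11 after MnDps at 24 h (adjusted p = 0.0877). The last was called in limma voom (−0.33, adjusted p = 0.0369) and without control replicate 2 (−0.38, adjusted p = 0.0358). Abcc2 has the longest coding transcript of the 9, with 8027 bases, and with the length and GC correction its values were −0.18 after MnDps at 4 h, no longer called (adjusted p = 0.0976), −0.38 after Dps at 24 h (adjusted p = 0.0115) and −0.09 after MnDps at 24 h (adjusted p = 0.596). Its longest transcript has a GC content of 45.2%, and the correction does not separate the share of length from that of GC. The transcript expressed in these kidneys was not determined.

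The promoters of Slco1a1 and Abcc2 are shown because these were the members called between MnDps and Dps at 4 h. The windows lie at chr6:141946913-141947212 on the minus strand and chr19:43782058-43782357 on the plus strand (RefSeq, GRCm38.p6). Capitals mark TGACNNNGC, the core of the antioxidant response element, which the factor NRF2 binds.
Slco1a1: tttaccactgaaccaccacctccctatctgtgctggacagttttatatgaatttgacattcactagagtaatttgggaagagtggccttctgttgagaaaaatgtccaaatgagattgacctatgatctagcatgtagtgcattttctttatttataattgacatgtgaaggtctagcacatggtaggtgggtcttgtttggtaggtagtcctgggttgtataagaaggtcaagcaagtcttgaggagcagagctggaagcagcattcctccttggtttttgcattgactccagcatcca
Abcc2: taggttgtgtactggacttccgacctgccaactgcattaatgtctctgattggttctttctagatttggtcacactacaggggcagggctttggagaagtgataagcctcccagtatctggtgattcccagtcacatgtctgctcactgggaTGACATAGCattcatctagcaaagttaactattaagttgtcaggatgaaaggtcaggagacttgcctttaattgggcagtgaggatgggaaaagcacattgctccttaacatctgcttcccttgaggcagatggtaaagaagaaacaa
The core was searched on both strands and starts at base −98 in Abcc2, with no match in the Slco1a1 window. It also occurs in both windows listed for Abcc4, and 12.4% of all windows hold it. Among 10 tested NRF2 target genes, 1 was higher after Dps at 4 h, 3 were higher and 3 lower after MnDps at 4 h, and 1 was lower after MnDps at 24 h. After Dps at 24 h edgeR called 0 of them, with 3 at an unadjusted p under 0.05 and 1 each in DESeq2 and limma voom. Hmox1, which breaks down heme, rose to 82.0 ± 6.18 CPM after Dps at 4 h and 96.8 ± 1.21 CPM after MnDps at 4 h, against 43.0 ± 15.4 CPM in the controls (0.93 ± 0.23 and 1.17 ± 0.23). Gsta2 (0.58 ± 0.18) and Srxn1 (0.35 ± 0.08) also rose after MnDps at 4 h. Ugdh (−0.40 ± 0.08), Gclm (−0.28 ± 0.08) and Txnrd1 (−0.28 ± 0.10) fell there, and Ugdh was the 1 lower after MnDps at 24 h (−0.40 ± 0.09). The part of NRF2 was not tested.

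Abcc4 and Abcc3, the other ATP-driven pumps, were the members with higher levels after MnDps at 24 h. Abcc3, at chr11:94343295-94392997 on the minus strand, had 6.56 and 5.41 CPM after MnDps at 24 h, against 3.02, 3.67 and 3.01 CPM in the controls. It rose by 0.89 ± 0.22 on the log2 scale (1.85-fold, adjusted p = 0.0157), but the call was lost without MnDps 24 h replicate 1 (0.75) or control replicate 3 (0.83). It had 4.86, 2.90 and 4.01 CPM after Dps at 4 h (0.29 ± 0.20, adjusted p = 0.352), 3.21, 2.72 and 3.67 CPM after MnDps at 4 h (−0.01 ± 0.20, adjusted p = 0.97) and 4.06, 3.92 and 4.06 CPM after Dps at 24 h (0.32 ± 0.20, adjusted p = 0.271). Abcc4, at chr14:118482692-118706219 on the minus strand, had 72.7 and 52.4 CPM after MnDps at 24 h and 51.1, 44.8 and 66.3 CPM after Dps at 4 h, against 41.3, 39.6 and 43.1 CPM in the controls. Both treated groups lay above the controls, but edgeR called neither (0.59 ± 0.19, adjusted p = 0.0559, and 0.38 ± 0.17, adjusted p = 0.157). Abcc4 after MnDps at 24 h was called by DESeq2 (0.60, adjusted p = 0.0145) and with only the groups compared (0.58, adjusted p = 0.016). Abcc4 had 47.4, 42.4 and 46.1 CPM after MnDps at 4 h (0.13 ± 0.17, adjusted p = 0.562) and 32.6, 32.0 and 48.8 CPM after Dps at 24 h (−0.13 ± 0.17, adjusted p = 0.634), groups that overlapped the controls. The 3 Abcc3 libraries of Dps at 24 h all lay above the controls.

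**Figure D3:**
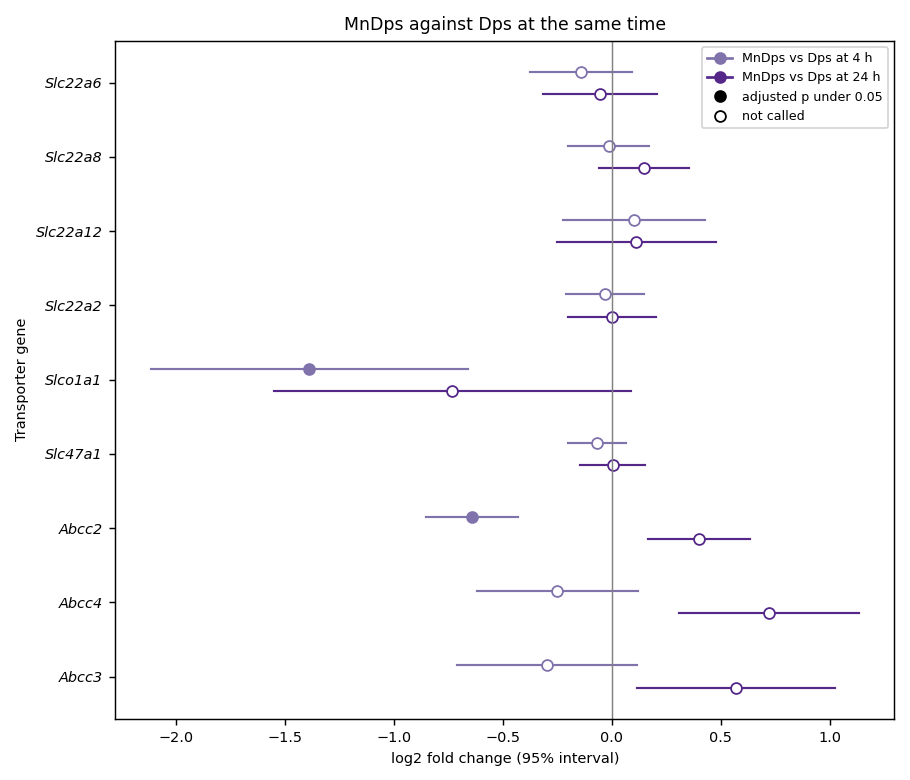
Log2 fold change of MnDps over Dps with its 95% interval (horizontal axis) for each transporter gene (vertical axis) at 4 h and at 24 h; filled points have an adjusted p under 0.05. At 4 h Slco1a1 (−1.39) and Abcc2 (−0.64) are called, and at 24 h the 3 Abcc genes lie to the right of 0 without a call.

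MnDps was then set against Dps at the same time. At 4 h 2 members were called, both lower after MnDps, where 41.5% of all genes were called and 20.7% lower. Slco1a1 had 108, 137 and 154 CPM after MnDps, against 485, 339 and 220.3 CPM after Dps, with no overlap (−1.39 ± 0.33, adjusted p = 0.00657). The 2 deepest of these 6 libraries, replicates 1 and 2 of Dps, were also the 2 highest in Slco1a1, and with a term for libraries over 30000000 counts the value was −0.96 (adjusted p = 0.0822). Abcc2 was lower by the same contrast (−0.64 ± 0.10, adjusted p = 0.000164), but with the length and GC correction it was −0.17 and not called (adjusted p = 0.15). Among members without a call, the 95% interval of the log2 fold change was −0.20 to 0.17 for Slc22a8, −0.21 to 0.15 for Slc22a2 and −0.20 to 0.07 for Slc47a1. It was −0.37 to 0.09 for Slc22a6, −0.23 to 0.43 for Slc22a12, −0.62 to 0.12 for Abcc4 and −0.71 to 0.11 for Abcc3. Abcc3 was called without Dps 4 h replicate 2 (−0.50, adjusted p = 0.0471), and with all libraries it gave −0.30 ± 0.19 (adjusted p = 0.24).

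At 24 h 0 of the 9 members were called between MnDps and Dps, where 0.815% of all genes were. At an unadjusted p under 0.05 there were 3 members, with no count taken over all genes. DESeq2 and limma voom each called 2, Abcc2 and Abcc4. Of all 14854 genes DESeq2 called 558 and limma voom 716, where edgeR called 121. With only the groups compared, Abcc2 was called (0.40, adjusted p = 0.0174), and 727 of 14328 genes were called in all. Abcc2 had 247 and 292 CPM after MnDps, against 206, 213 and 193 CPM after Dps (0.40 ± 0.11, adjusted p = 0.0917). Abcc4 had 72.7 and 52.4 CPM after MnDps, against 32.6, 32.0 and 48.8 CPM after Dps (0.72 ± 0.19, adjusted p = 0.0903), and it was called without Dps 24 h replicate 3 (0.95, adjusted p = 0.0458). Abcc3 gave 0.57 ± 0.21 (adjusted p = 0.198) and Slco1a1 −0.73 ± 0.37 (adjusted p = 0.359). The 95% interval was 0.17 to 0.63 for Abcc2, 0.31 to 1.13 for Abcc4, 0.11 to 1.02 for Abcc3 and −1.55 to 0.09 for Slco1a1. It was −0.31 to 0.21 for Slc22a6, −0.06 to 0.35 for Slc22a8, −0.25 to 0.48 for Slc22a12, −0.20 to 0.20 for Slc22a2 and −0.15 to 0.15 for Slc47a1.

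Within each protein, 24 h was compared with 4 h. After Dps, 2 members were lower at 24 h, where 44.6% of all genes were called and 22.6% lower. Abcc2 fell to 206, 213 and 193 CPM at 24 h, against 364, 344 and 329 CPM at 4 h (−0.76 ± 0.10, adjusted p = 3.2e-05), a call kept in each of 14 alternatives, with −0.37 under the length and GC correction. Abcc4 fell by 0.51 ± 0.17 on the log2 scale (adjusted p = 0.0279), and leaving out Dps 4 h replicate 3 (−0.36) or Dps 24 h replicate 1 (−0.41) or 2 (−0.40) ended the call, as did the length and GC correction (−0.25) and a fit of only the groups compared (−0.50). Slco1a1 gave −0.61 ± 0.32 (adjusted p = 0.147), and it was called without Dps 4 h replicate 3 (−0.87). After MnDps, 2 members were higher at 24 h, where 21.8% of all genes were called and 10.1% higher: Slc22a8, given above, and Abcc3, which rose by 0.90 ± 0.22 (adjusted p = 0.00756; 0.75 and not called without MnDps 24 h replicate 1). The difference between these 2 time courses, tested as an interaction of protein and time, was called for Abcc2 (1.04 ± 0.15, adjusted p = 0.00038), Abcc4 (0.97 ± 0.26, adjusted p = 0.0123) and Abcc3 (0.87 ± 0.29, adjusted p = 0.0334), where 29.4% of all genes were called and 13.7% in this direction.

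**Figure D4:**
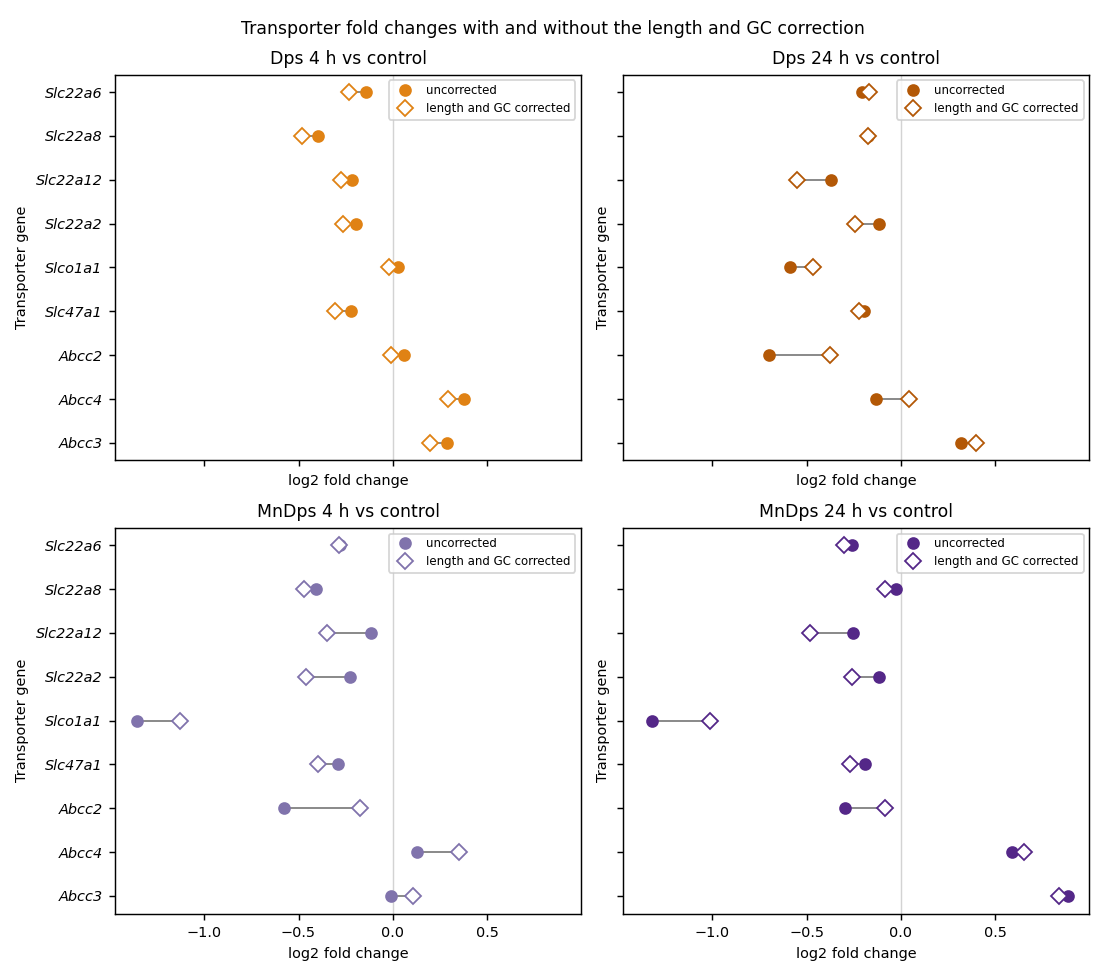
Log2 fold change against control (horizontal axes) of each transporter gene (vertical axis) with no correction (filled circles) and with the correction for transcript length and GC content (open diamonds), in the 4 treated groups. After MnDps at 4 h Abcc2 lies at −0.58 without and −0.18 with the correction, and Slc22a8 and Slc47a1 stay on the lower side in both.

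Other carriers and pumps of drugs and organic ions were taken from a list of 54 genes, of which 45 were tested. After Dps at 4 h 1 was higher and 5 lower (median log2 fold change −0.02), after MnDps at 4 h 1 and 15 (−0.22), after Dps at 24 h 2 and 5 (−0.06) and after MnDps at 24 h 2 and 5 (0.00). Of all genes tested, 14.6%, 45.6%, 20.1% and 13.3% were called in these 4 comparisons. With the length and GC correction the called genes of this list numbered 10, 18, 2 and 4. Over all 14328 genes with the correction, 3658, 5439, 1394 and 1097 were called. These background numbers also stand beside the counts of the other gene lists. Slc22a22, a prostaglandin carrier of mouse kidney, fell to 102 ± 13.8 CPM after Dps at 4 h and 102 ± 3.72 CPM after MnDps at 4 h, against 158 ± 3.78 CPM in the controls (−0.63 ± 0.09, adjusted p = 0.000132, and −0.62 ± 0.09, adjusted p = 8.8e-05), and it was also lower after MnDps at 24 h (−0.34 ± 0.10). The nucleoside carrier Slc29a3 fell after MnDps at 4 h (−0.65 ± 0.09) and 24 h (−0.33 ± 0.10) and after Dps at 24 h (−0.57 ± 0.09), and Slc29a1, another nucleoside carrier, after Dps at 4 h (−0.63 ± 0.13) and MnDps at 4 h (−0.50 ± 0.13). The potassium channel subunit Abcc9 (−0.97 ± 0.16) and Abcc6 (−0.72 ± 0.16) fell after MnDps at 4 h, and Abcc9 also after Dps at 24 h (−0.48 ± 0.16). Slco4a1, an organic anion-transporting polypeptide, rose to 50.4 ± 2.99 CPM (n = 2) after MnDps at 24 h, against 18.7 ± 5.31 CPM in the controls (1.43 ± 0.31, adjusted p = 0.0157). The prostaglandin carrier Slco2a1 rose after Dps at 4 h (0.42 ± 0.11).

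Partners and regulators of the carriers were described from their own lists. Of 7 genes for sodium-coupled dicarboxylate and sulfate carriers, sodium pump subunits and a sodium-proton exchanger, 1 rose and 2 fell after Dps at 4 h (median −0.14), 1 and 3 after MnDps at 4 h (−0.10), 1 and 1 after Dps at 24 h (−0.21), and 1 fell after MnDps at 24 h (−0.27). After correction for length and GC content 5, 4, 1 and 3 of them were called. The dicarboxylate carrier Slc13a3, which feeds the anion exchangers, fell to 693 ± 59.3 CPM after Dps at 4 h and 645 ± 82.3 CPM after MnDps at 4 h, against 933 ± 27.6 CPM in the controls (−0.43 ± 0.10 and −0.53 ± 0.10). The sulfate carrier Slc13a1 rose in the same groups (0.87 ± 0.17 and 0.66 ± 0.17), and the sodium-proton exchanger Slc9a3 fell after MnDps at 4 h (−1.86 ± 0.21) and Dps at 24 h (−1.21 ± 0.20). Of 18 regulators and scaffolds, 1 rose and 2 fell, 2 and 3, 2 and 2, and 2 fell in the 4 comparisons in the same order (medians −0.11, −0.18, −0.15 and −0.02). With the length and GC correction the called regulators and scaffolds numbered 3, 8, 1 and 0. Pdzk1, a scaffold that holds URAT1 and other carriers at the urine-side membrane, fell after Dps at 4 h (−0.42 ± 0.08, adjusted p = 0.00147) and MnDps at 4 h (−0.31 ± 0.08, adjusted p = 0.00428). The nuclear receptor Hnf4g fell after MnDps at 4 h (−1.34 ± 0.21) and 24 h (−0.81 ± 0.24) and after Dps at 24 h (−0.64 ± 0.21), and so, in the same order, did the glucocorticoid receptor Nr3c1 (−0.76 ± 0.11, −0.46 ± 0.12 and −0.37 ± 0.11). Keap1, which holds NRF2 in check, rose after Dps at 4 h (0.40 ± 0.07), MnDps at 4 h (0.56 ± 0.07) and Dps at 24 h (0.24 ± 0.07).

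Markers of the tubule segments that hold these carriers also changed, and their part in the results was not tested. Of 14 markers of the first and second proximal segments, 4 fell after Dps at 4 h, 9 fell and 1 rose after MnDps at 4 h, 5 fell after Dps at 24 h, and 2 fell and 1 rose after MnDps at 24 h (medians −0.22, −0.44, −0.28 and −0.20). With the length and GC correction 7, 8, 2 and 5 of them were called, in either direction. Their summed level ran from 17700 to 20429 CPM after Dps at 4 h, 17233 to 19197 after MnDps at 4 h, 17300 to 18746 after Dps at 24 h and 14620 to 16639 after MnDps at 24 h, against 18844 to 19863 CPM in the controls. The amino acid carrier Slc7a8 fell after Dps at 4 h (−0.64 ± 0.12), MnDps at 4 h (−1.04 ± 0.12) and Dps at 24 h (−0.48 ± 0.12). Pck1, which is part of the summed level, was the 1 that rose after MnDps at 4 h (0.70 ± 0.22). It averaged 5675 CPM after MnDps at 4 h and 1758 CPM after MnDps at 24 h (−0.99 ± 0.26), against 3498 CPM in the controls. Slc7a7 was the 1 that rose after MnDps at 24 h (0.42 ± 0.10). Of 9 markers of the third segment, 1 fell after Dps at 4 h, 3 fell and 2 rose after MnDps at 4 h and 3 fell after MnDps at 24 h. After Dps at 24 h edgeR called 0, with 3 at an unadjusted p under 0.05, 1 in DESeq2 and 2 in limma voom. Under the correction 2, 7, 1 and 2 third-segment markers were called in the 4 comparisons. Their summed level ran from 11936 to 13121, 11154 to 11903, 11651 to 13238 and 10681 to 12043 CPM in the treated groups in that order, against 12673 to 14100 CPM in the controls. No marker of either list was at 0 in a group. Slc22a30, a third-segment marker that fell after MnDps at 4 h and at 24 h, is also counted among the other carriers above. Hnf4a, a marker of the first and second segments, is also counted among the regulators.

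Of 6 androgen-responsive genes, a class to which Slco1a1 belongs, 2 rose and 3 fell after MnDps at 4 h, among them Kap (0.45 ± 0.11) and Aoc1 (1.60 ± 0.21), which rose, and Odc1 (−0.90 ± 0.30) and Acsm3 (−0.56 ± 0.18), which fell. Aoc1 was the 1 gene of this list that rose after Dps at 4 h (1.51 ± 0.21) and after MnDps at 24 h (0.92 ± 0.24). After Dps at 24 h edgeR called 0 of the 6, with 3 at an unadjusted p under 0.05 and 1 each in DESeq2 and limma voom.

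Likeness was described as Pearson's r of log2 CPM over the 14 libraries, against 11003 genes with a mean of at least 5 CPM. These values include the differences between groups and carry no test. Slco1a1 was most like Slc22a30 (r = 0.96), a carrier of the same superfamily as Slc22a6, followed by Agps (0.94), an enzyme of ether lipid synthesis, and the fatty acid receptor Cd36 (0.94). Abcc2 was most like Tbl1x (0.98), Prpf8 (0.97) and Nsd1 (0.97). Slc22a8 was most like Tmem52b and the phosphate carrier Slc34a3 (0.91 each), and Slc22a6 most like Ppp2r1b (0.87) and the brush-border peptidase Anpep (0.85). Slc47a1 was most like Orc3 (0.94), Slc22a2 like Gm6300 (0.92), Slc22a12 like Tmem62 (0.91), Abcc3 like Gsdmc2 (0.90) and Abcc4 like the endothelial gene Pecam1 (0.85). The neighbours Slc22a6 and Slc22a8 had r = 0.28 with each other.

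Markers of other cells also differed between groups, and their part in the transporter results was not tested. Of 8 endothelial markers, 5 fell and 1 rose after Dps at 4 h and 6 fell after MnDps at 4 h, with summed levels of 239.9 to 313 and 225 to 277 CPM, against 382 to 445 CPM in the controls. At 24 h 1 fell and 1 rose after Dps (436 to 517 CPM) and 2 rose after MnDps (496 to 549.8 CPM). Of 8 leukocyte markers, 3 rose after Dps at 4 h, 3 rose and 1 fell after MnDps at 4 h, 4 rose after Dps at 24 h and 2 after MnDps at 24 h, and the summed level stayed between 17.4 and 35.0 CPM in all 14 libraries. Of 8 adipocyte markers, 4 rose after Dps at 4 h, 3 after MnDps at 4 h and 1 after Dps at 24 h. Their summed level was 173 to 269 CPM after Dps at 4 h, 135 to 246 after MnDps at 4 h, 124 to 220.5 after Dps at 24 h and 66.1 to 178 after MnDps at 24 h, against 49.5 to 111 CPM in the controls. After MnDps at 24 h edgeR called 0 adipocyte markers (2 at an unadjusted p under 0.05, 0 in DESeq2 and limma voom) and 0 liver markers (1, 0 and 0). Slco1a1, Abcc2 and Abcc3 are also liver genes: of 9 tested liver markers 3, 6 and 1 rose in the other 3 comparisons, while albumin, Alb, averaged 6.74, 12.3, 11.2 and 7.11 CPM in the 4 treated groups, against 8.29 CPM in the controls. The fibrinogen genes Fga and Fgg rose after Dps at 4 h (1.36 ± 0.26 and 1.51 ± 0.32) and MnDps at 4 h (1.83 ± 0.27 and 2.31 ± 0.32). The summed liver markers were 279.8 to 302 CPM after Dps at 4 h, 292 to 409 after MnDps at 4 h, 198 to 230.1 after Dps at 24 h and 198 to 208 after MnDps at 24 h, against 191 to 254 CPM in the controls. Apob held most of the control sum, with 164 CPM, and averaged 167 CPM after Dps at 4 h and 164 CPM after MnDps at 4 h. Ahsg was at 0 after Dps at 24 h and Cyp2c29 after MnDps at 24 h. Thick limb and distal markers fell in 4 of 8 and rose in 1 after MnDps at 4 h, and fell in 2 and rose in 1 in each 24 h group. The 1 that rose was each time Aqp2, a collecting duct gene kept in this list. Its values were 0.82 ± 0.23 after MnDps at 4 h, 1.28 ± 0.23 after Dps at 24 h and 1.31 ± 0.25 after MnDps at 24 h. Podocyte markers fell in 3 of 6 in MnDps at 4 h and in both 24 h groups. After Dps at 4 h edgeR called 0 of either list. At an unadjusted p under 0.05 there were 4 thick limb and distal markers (2 in DESeq2, 1 in limma voom) and 1 podocyte marker (0 in both). After correction for length and GC content 4, 4, 2 and 3 thick limb and distal markers and 1, 2, 3 and 5 podocyte markers were called in the 4 comparisons.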

How the data were processed

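The 14 kidney libraries were prepared with a stranded mRNA kit and read from both ends, per the labels' protocols. The submitters' processing notes name STAR, featureCounts and mm10; versions, settings and gene models were not given in what was used here. The deposited values are raw counts of reads for each gene symbol, and each library's total limits its precision. Groups follow the labels, and replicate numbers only name libraries. Pairs of replicates differed beyond counting error (chi-square per degree of freedom 8.1 to 30.8).

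Genes were filtered with edgeR's filterByExpr, scaled by TMM and tested with edgeR 4.0.16 (R 4.3.3) in a robust quasi-likelihood model of the 5 groups (9 residual degrees of freedom). Benjamini-Hochberg adjustment ran over all 14854 genes of a comparison, and the SE was computed as fold change over the root of F. Coordinates and lengths come from GENCODE M21 (GRCm38), promoters from RefSeq. Alternatives were DESeq2 1.42.0 and its size factors, limma voom 3.58.1, 2 other filters, only the groups compared, a depth term, leaving out each library, and a length and GC correction (a spline trend of each library as an offset, for 14328 genes with an annotated transcript). Members and gene lists were chosen with earlier results of these data known. All 9 members are named. From the lists up to 4 called genes of at least 1 CPM per comparison could be named, by size of change. Alb, Ahsg, Cyp2c29, Apob, Gclm and Txnrd1 were named after their values were seen, and so were Pck1 and Slc29a1 for MnDps at 4 h.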

Additional observations from a re-analysis of the deposited data

Results flagged for a closer look

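A test of the interaction called 3 of the 9 transporters, where 29.4% of all genes were called and 13.7% in the same direction. The difference between the time courses was written as MnDps at 24 h over 4 h minus Dps at 24 h over 4 h. For Abcc2 it was 1.04: 24 h over 4 h gave 0.28 ± 0.11 after MnDps, which was not called (adjusted p = 0.0782; 0.09 with the length and GC correction, and called in 0 of 13 alternatives), and −0.76 ± 0.10 after Dps, which was called (adjusted p = 3.2e-05; −0.37 with the correction). This call was kept in each of 19 alternatives, with 0.46 under the length and GC correction. For Abcc4 it was 0.97, called in 17 of 19 alternatives and lost without MnDps 24 h replicate 1 (0.72) and with the length and GC correction (0.55). For Abcc3 it was 0.87, called in 9 of 19 alternatives, and lost with the length and GC correction (0.53), with the depth term (0.94) and without MnDps 24 h replicate 1 (0.73) or 2 (1.01), MnDps 4 h replicate 2 (0.76), Dps 4 h replicate 1 (0.67) or 3 (0.86), or Dps 24 h replicate 1 (0.88), 2 (0.85) or 3 (0.88).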

How the results depend on the processing

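No member's fold change turned its direction where it was called with all libraries or under an alternative. The counts of called members that moved by more than 1.5 times were as follows; the cause was not tested. With no count filter 1 member was called for Dps at each time and for MnDps at 24 h against control, in place of 2. Of 19272 genes, 1980 were then called for Dps at 4 h, 2683 for Dps at 24 h and 1765 for MnDps at 24 h. The main fit called 2168, 2979 and 1978 of 14854. DESeq2 called 4 members in MnDps at 24 h against control, where it called 2462 of all genes and edgeR 1978. It called 2 in MnDps against Dps at 24 h, where limma voom called 2 as well. Of all genes, DESeq2 called 558 there, limma voom 716 and edgeR 121. With only the groups compared in the fit, 1 member was called in Dps at 4 h and at 24 h against control, in Dps at 24 h against 4 h and in MnDps against Dps at 24 h. Over all genes these fits called 1891, 3057, 7195 and 727, and the main fit 2168, 2979, 6626 and 121. The length and GC correction left 1 in MnDps against Dps at 4 h and 1 in the interaction, with 3476 and 2210 of all genes called, in place of 6158 and 4368. The depth term left 1 in Dps at 24 h and MnDps at 24 h against control and in MnDps against Dps at 4 h. Over all genes it left 1637, 1033 and 3558, in place of 2979, 1978 and 6158. Leaving out each library in turn gave 1 to 2 in Dps at 4 h, 4 to 6 in MnDps at 4 h, 1 to 2 in Dps at 24 h and 0 to 2 in MnDps at 24 h against control. It gave 2 to 3 and 0 to 1 in MnDps against Dps at 4 h and 24 h, 1 to 3 and 0 to 2 in 24 h against 4 h for Dps and MnDps, and 1 to 3 in the interaction. Counts over all genes moved as well. Leaving out 1 control gave 843 to 3529 genes in Dps at 24 h against control, where all libraries gave 2979. In MnDps at 24 h against control it gave 779 to 2562, where all libraries gave 1978. With a replicate of MnDps at 24 h left out, the lone library is assumed to vary like the other groups. No paired analysis was possible because the labels give no replicate numbers. MnDps at 24 h has 2 libraries, and Abcc3 has at most 206 reads in a library, so small changes there may not be detectable.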
